A study of Mus musculus with 32 samples.

Results

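The mitochondrial ribosome translates the few messenger RNAs that mitochondrial DNA encodes, all of them for subunits of the respiratory chain and ATP synthase. It has a large and a small subunit, and every one of its proteins is encoded in the nucleus, translated on cytosolic ribosomes and imported. Some of these proteins descend from bacterial ribosomal proteins, whereas others are specific to mitochondria. In Leydig cells mitochondria also carry out the first step of steroid synthesis, the cleavage of the cholesterol side chain.

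The mRNAs described here are those of the mitochondrial ribosomal protein genes, taken as every probe set with a single gene symbol that starts with Mrpl or Mrps and a number. This gave 85 of the 35556 probe sets on the array, which stand for 77 of 19938 genes. By textbook assignment 50 genes encode proteins of the large subunit, 26 encode proteins of the small subunit, and Mrps36 is counted apart because its product is now described as a part of the oxoglutarate dehydrogenase complex. Mrps18a and Mrps30 carry small-subunit names but their products lie in the large subunit. All 85 probe sets passed the filter on low values in every comparison, which asked for a linear signal over 50 on at least 1 array of the fit. For the 8 genes with several probe sets, values are those of the brightest probe set on average unless stated.

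All mice were adult double heterozygotes that carried the RiboTag allele, a ribosomal protein gene that gains a hemagglutinin (HA) tag where Cre recombinase is active, together with AMH-Cre (Sertoli cells) or Cyp17iCre (Leydig cells). The input was total RNA of testis homogenate and the IP was RNA recovered with an anti-HA antibody, so an IP holds mRNAs associated with cytosolic ribosomes of the Cre-expressing cells. AMH-Cre: RiboTag mice gave 5 saline inputs, 5 saline IPs and 2 IPs each after acyline (a GnRH antagonist), acyline with FSH for 1 h, acyline with FSH for 4 h, cetrorelix (another GnRH antagonist) and cetrorelix with testosterone. By the study's methods these mice received either antagonist for 3 days, and testosterone acted for 4 h. Cyp17iCre: RiboTag mice gave 3 saline inputs, 3 saline IPs and 2 IPs each after 4 days of acyline and after acyline with a single injection of human LH for 1 h or 4 h. The labels of the 4 arrays with cetrorelix contradict each other on the fraction (the source says input, the titles say IP), and these arrays were treated as IPs. The study also saw HA staining in some tubule cells of the Cyp17iCre line and took them for Sertoli cells from its enrichment data. That line is therefore not a pure Leydig cell model, and its IPs can hold mRNAs of Sertoli cells.

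The defining markers followed the labels. The mean log2 level of 11 Sertoli cell markers lay between 8.21 and 8.45 in the inputs of both lines and between 10.6 and 10.9 in all Sertoli IPs, and that of 8 Leydig cell markers lay between 9.04 and 9.41 in the inputs and between 11.7 and 12.3 in all Leydig IPs. The Sertoli cell markers averaged 8.29 to 8.85 in the Leydig IPs. The Leydig cell markers averaged 8.24 to 8.53 in the Sertoli saline IPs and 7.74 to 8.10 in the treated Sertoli IPs, without overlap. Spermatid markers (10 genes) averaged 11.96 to 12.2 in the inputs and 10.2 to 10.8 in the IPs, and the mean of 12 spermatogonia and spermatocyte markers was 9.92 to 10.1 in the inputs, 8.25 to 9.02 in the Sertoli IPs and 8.81 to 9.28 in the Leydig IPs. Enrichment was therefore measured against inputs rich in germ cell RNA, and the part of germ cells in any value below was not tested. In bulk RNA of this kind fewer cells of a type and less RNA per cell cannot be told apart. Replicate arrays are separate samples by their labels, and the study's methods say that the Sertoli testosterone and FSH arrays were run on 2 animals a group. For the saline groups the legends of the study's lists of enriched genes count 5 AMH-Cre: RiboTag mice and 3 Cyp17iCre: RiboTag mice. These counts match the saline arrays of each fraction. For the arrays of the Leydig acyline and LH groups the study states no number of animals. Whether each of those arrays stands for its own animal is therefore not known, and p-values that use them reflect only how far arrays differ.

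The genes of this group are scattered over 17 chromosomes, with at most 11 on any one (chromosome 11) and none on the X chromosome or in mitochondrial DNA. Promoter windows of 300 bases (250 before the annotated start to 50 after it, RefSeq, GRCm38.p6) were at hand for 68 of the 77 genes. Motifs were searched on both strands: GCGCA and GCGC with any base between them for NRF1, CCGGAAG for the ETS family to which GABP belongs, AAGATGGC for YY1, TGACGTCA for the cAMP response element and CACGTG for the E-box. The ETS letters were present in 24 windows (35.3%), against 12.5% of the windows of 15614 genes on the array and 9.12% of all 27025 windows. The NRF1 letters were present in 13 (19.1%, against 7.25% and 4.78%) and the YY1 letters in 12 (17.6%, against 3.43% and 2.88%). The shares with the cAMP response element (2 windows, 2.9%, against 2.49% and 1.88%) and the E-box (5 windows, 7.4%, against 8.38% and 7.24%) lay near those of the array's genes. A match is only a match of letters, and these counts carry no test.

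Stretches of 250 bases before the start are shown because their genes carried the results below: Mrps21, the gene with the largest positive difference of enrichment between the lines, and Mrpl1 and Mrpl47, which were depleted in the IPs of both. Capitals mark the NRF1 letters, which in these stretches were found only before Mrps21, beginning 91 bases before the start. In the windows of other members they were absent for Mrpl23 and Mrpl42, named below as called. They were present for Mrpl12 and Mrpl39, which were not called. A link between these letters and enrichment was not tested. The stretch of Mrps21 is chr3:95871515-95871764 on the minus strand, that of Mrpl1 is chr5:96209865-96210114 on the plus strand, and that of Mrpl47 is chr3:32736756-32737005 on the minus strand (GRCm38.p6). The stretch of Mrpl1 precedes the start used for its window and lies within the longest annotated span of the gene (from 96209498). The annotated span of the noncoding gene C920021L13Rik reaches into the stretch of Mrps21.
Mrps21: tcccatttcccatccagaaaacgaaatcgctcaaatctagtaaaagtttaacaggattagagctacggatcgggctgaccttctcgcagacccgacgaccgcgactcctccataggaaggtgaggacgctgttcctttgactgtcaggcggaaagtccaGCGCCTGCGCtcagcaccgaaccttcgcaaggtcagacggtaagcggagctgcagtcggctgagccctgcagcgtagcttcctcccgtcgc
Mrpl1: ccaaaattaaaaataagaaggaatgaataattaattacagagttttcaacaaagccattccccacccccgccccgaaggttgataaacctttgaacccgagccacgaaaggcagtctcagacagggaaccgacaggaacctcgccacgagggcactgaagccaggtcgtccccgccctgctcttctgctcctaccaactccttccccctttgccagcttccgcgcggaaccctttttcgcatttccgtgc
Mrpl47: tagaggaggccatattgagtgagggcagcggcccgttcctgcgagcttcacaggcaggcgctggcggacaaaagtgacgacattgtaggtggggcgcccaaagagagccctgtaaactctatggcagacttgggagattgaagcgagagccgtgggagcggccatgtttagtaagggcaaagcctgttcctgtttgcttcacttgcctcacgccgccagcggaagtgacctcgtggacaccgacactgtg

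In Sertoli cells most mitochondrial ribosomal protein mRNAs differed between IP and input by less than 2-fold. Of the 85 probe sets, 4 were called enriched and 2 depleted (a fold of at least 2 and an adjusted p under 0.05 by limma with Benjamini-Hochberg adjustment over all probe sets tested), whereas 12.4% of all 24797 tested probe sets were called enriched and 11.7% depleted. Without the fold threshold 34 of the 85 were higher and 29 lower in the IP, against 32% and 37.2% of all. The median log2 enrichment was 0.04 over the 77 genes and -0.02 over 15664 genes with a single symbol, and the SD over genes was 0.59 against 0.97. The whole range ran from -1.12 to 1.65.

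The gene with the highest Sertoli enrichment was Mrps6, a small-subunit protein of the bacterial S6 family. Its log2 level was 8.61, 8.68, 8.88, 9.11 and 9.19 in the 5 inputs and 10.34, 10.51, 10.57, 10.64 and 10.68 in the 5 IPs. Every IP lay above every input. The enrichment was 1.65 ± 0.12 (SE) on the log2 scale, or 3.14-fold (limma adjusted p = 8.06e-08). In Leydig cells the same probe set lay at 8.85, 8.95 and 9.09 in the inputs and at 9.07, 9.33 and 9.37 in the IPs. These groups overlapped, with an enrichment of 0.29 ± 0.11 (limma adjusted p = 0.0425).

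The annotated span of Slc5a3, the gene of a myo-inositol transporter, overlaps that of Mrps6 (chr16:92058336-92112227, GRCm38.p6), and its own probe set behaved alike. Slc5a3 lay at 7.93 to 8.16 in the 5 Sertoli inputs and at 10.1 to 10.4 in the 5 Sertoli IPs, a 2.20 ± 0.07 enrichment (limma adjusted p = 1.63e-10). In Leydig cells its enrichment was 0.20 ± 0.14 (limma adjusted p = 0.252). Whether signal of Slc5a3 transcripts enters the Mrps6 probe set was not tested. In all, the spans of 24 of the 77 genes overlap another annotated gene, 19 of them a protein-coding one. Other overlapping or adjacent genes were measured by probe sets of their own. The span of Mrpl49 overlaps that of Syvn1, which is not analysed here. Fau, beside Mrpl49, differed by -0.05 in Sertoli and -0.09 in Leydig cells, Zfp189, beside Mrpl50, by 0.27 and -0.62, and Ptcd2, beside Mrps27, by -0.95 and -0.49, none of them enriched 2-fold as the member was. Ndufb5, beside Mrpl47, differed by -0.58 and -0.35.

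The other enriched members in Sertoli cells were Mrpl49, Mrpl50 and Mrps17. Mrpl49, a mitochondria-specific protein of the large subunit, was between 8.14 and 8.45 in the inputs and between 9.48 and 9.63 in the IPs, an enrichment of 1.31 ± 0.07. Mrpl50, also specific to mitochondria and in the large subunit, rose from 7.02 to 7.39 in the inputs to 8.38 to 8.67 in the IPs, with an enrichment of 1.25 ± 0.09. Mrps17, of the bacterial S17 family in the small subunit, was between 8.03 and 8.23 in the inputs and between 9.01 and 9.40 in the IPs, with an enrichment of 1.09 ± 0.08. None of these groups overlapped, and the limma adjusted p was at most 1.04e-07 for the 3 genes. Mrpl58 (formerly Ict1), a release factor homologue built into the large subunit, lay just under the threshold with 0.99 ± 0.07 or 1.99-fold, and passed it when input replicate 2 or 5 or IP replicate 4 or 5 was left out (1.00 to 1.04), with arrays centred on a common median (1.04) and with replicates 1 to 3 only (1.08).

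Mrpl1 and Mrpl47 were depleted in Sertoli IPs. Mrpl1, whose bacterial counterpart forms the L1 stalk at the exit of deacylated tRNA, was between 9.63 and 9.69 in the 5 inputs and between 8.45 and 8.72 in the 5 IPs, a difference of -1.10 ± 0.07 (limma adjusted p = 1.56e-08). Mrpl47, of the bacterial L29 family, was between 8.76 and 9.18 in the inputs and between 7.81 and 8.09 in the IPs, a difference of -1.12 ± 0.09 (limma adjusted p = 2.36e-07). The second probe set of Mrpl47 differed by -0.19 and was not called, so the 2 probe sets of this gene disagreed.

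In Leydig cells, 6 probe sets of 5 genes were called enriched and 2 depleted, against 11% and 10.7% of all 24705 probe sets tested. Without the fold threshold 37 of the 85 were higher and 18 lower in the IP, against 29% and 33.5% of all. The median log2 enrichment of the 77 genes was 0.21, against -0.06 over 15520 genes, and 49 of the 77 were above 0. The plot of enrichment in one line against the other shows the genes called in either.

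**Figure D1:**
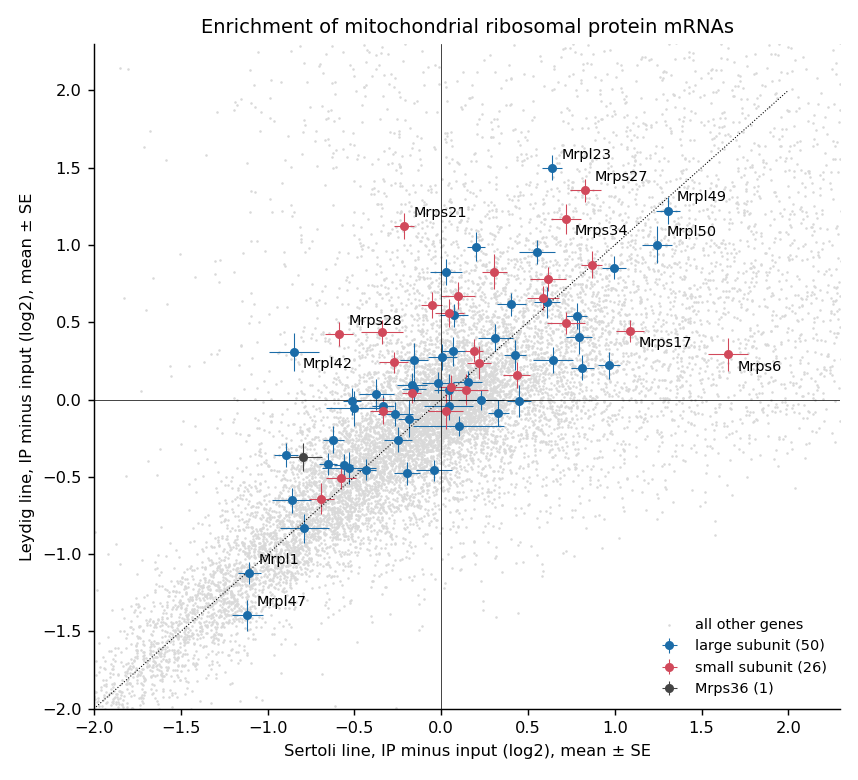
Enrichment of each of the 77 mitochondrial ribosomal protein genes in Sertoli cells (horizontal axis) and Leydig cells (vertical axis) as the log2 difference of saline IP and saline input, mean ± SE, with all other genes in grey and the diagonal dotted. Genes called in either line or for the difference are named; Mrps6 lies far right of the diagonal, and Mrps21, Mrpl42 and Mrps28 lie above 0 in Leydig cells and below 0 in Sertoli cells. Other genes outside the axis range are not drawn.

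Mrpl23, a protein of the large subunit at the exit of the peptide tunnel, had the highest Leydig enrichment. Its levels were 8.06, 8.20 and 8.24 in the 3 inputs and 9.61, 9.63 and 9.76 in the 3 IPs. The enrichment was 2.83-fold with a 95% interval of 1.31 to 1.69 on the log2 scale (limma adjusted p = 2.21e-06), and a second probe set gave 1.44. The 2 probe sets followed each other with a Pearson r of 0.999 over the 32 arrays.

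Of the other called members, 3 belong to the small subunit. Mrps27, a mitochondria-specific protein with pentatricopeptide repeats, was 6.84, 6.95 and 6.98 in the inputs and 8.23, 8.28 and 8.33 in the IPs, an enrichment of 1.35 ± 0.07. Mrps34, also mitochondria-specific, was 7.78, 7.94 and 8.11 in the inputs and 9.06, 9.12 and 9.14 in the IPs, an enrichment of 1.17 ± 0.10. Mrps21, of the bacterial S21 family, was 8.85 to 9.07 in the inputs and 10.07, 10.08 and 10.15 in the IPs, an enrichment of 1.12 ± 0.08. In all 3 genes every IP lay above every input, with limma adjusted p between 2.09e-06 and 1.86e-05. In Sertoli cells the enrichment of Mrpl23 was 0.64 ± 0.06, that of Mrps27 0.83 ± 0.09 and that of Mrps34 0.72 ± 0.09, each under the fold threshold.

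Mrpl49 was called in both lines, with 1.22 ± 0.08 in Leydig cells (7.71 to 7.87 in the inputs, 8.90 to 9.11 in the IPs). Mrpl50 was just under the threshold there, at 1.00 ± 0.12 (2.00-fold after rounding, limma adjusted p = 0.000157). The depleted genes were those of the Sertoli IPs. Mrpl1 was 9.83, 9.89 and 9.89 in the inputs and 8.72, 8.72 and 8.81 in the IPs, a difference of -1.12 ± 0.07, and Mrpl47 was 8.93, 8.97 and 9.10 in the inputs and 7.49, 7.55 and 7.78 in the IPs, a difference of -1.40 ± 0.10. The second probe set of Mrpl47 differed by 0.07 in Leydig cells.

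**Figure D2:**
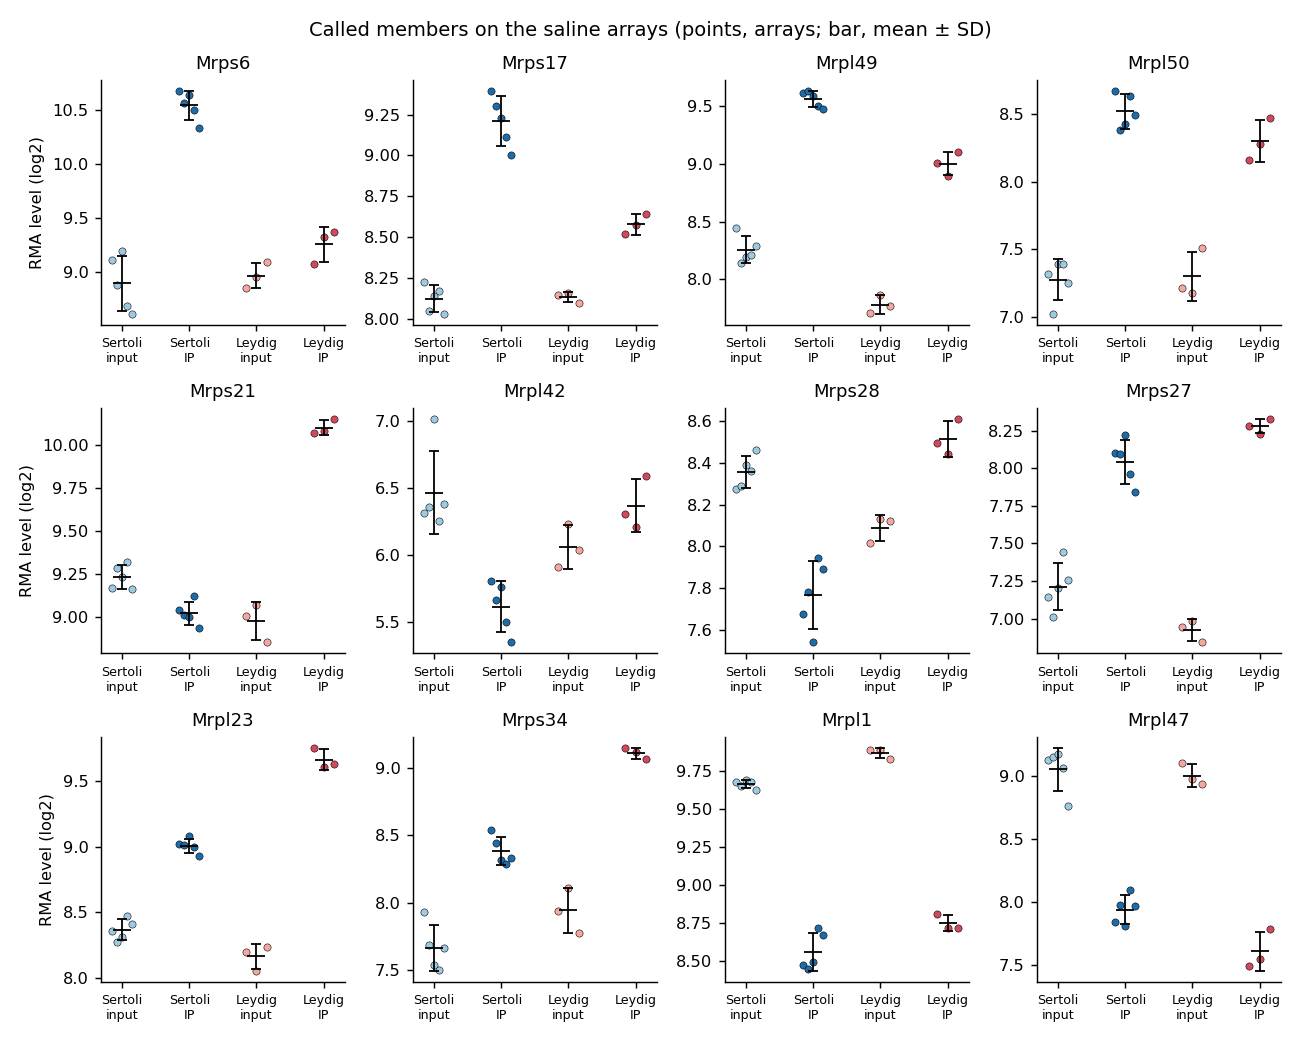
Log2 RMA levels of 12 members on the 16 saline arrays, by line and fraction, with each array as a point and the mean ± SD as a bar; the vertical axes differ between genes and do not start at 0. Mrps6 is high in the Sertoli IPs only, Mrps21 in the Leydig IPs only, and Mrpl1 and Mrpl47 are low in the IPs of both lines.

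The enrichment itself was then compared between the lines in a fit of all 16 saline arrays (Leydig minus Sertoli, the interaction of line and fraction). Of the 85 probe sets, 3 had a higher enrichment in Leydig cells and 1 a lower one, against 5.48% and 5.98% of all 25524 tested. Without the fold threshold 25 were higher and 9 lower, against 16.1% and 19.4%. The 3 higher genes were Mrps21 (1.34 ± 0.09, limma adjusted p = 7.45e-09), Mrpl42 (1.16 ± 0.22, limma adjusted p = 0.000525) and Mrps28 (1.01 ± 0.12, limma adjusted p = 3.84e-06), and the lower one was Mrps6 (-1.36 ± 0.18, limma adjusted p = 1.31e-05).

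For Mrps21 the Sertoli inputs lay at 9.16 to 9.32 and the Sertoli IPs at 8.93 to 9.12, an enrichment of -0.21, so its mRNA was the only one of the 5 genes called enriched in Leydig cells whose Sertoli IPs lay below their inputs. Mrpl42, a mitochondria-specific large-subunit protein, was 6.26 to 7.01 in the Sertoli inputs, 5.35 to 5.81 in the Sertoli IPs, 5.91 to 6.23 in the Leydig inputs and 6.21 to 6.59 in the Leydig IPs. Mrps28, in the small subunit, was 8.27 to 8.46, 7.54 to 7.95, 8.01 to 8.13 and 8.44 to 8.61 in the same order. For both genes the Sertoli enrichment was negative (-0.85 ± 0.14 and -0.59 ± 0.08) and the Leydig enrichment positive (0.31 ± 0.12 and 0.43 ± 0.08), and neither line alone passed the fold threshold. Mrps28 lay close to that threshold and fell under it, to 0.95, when the arrays were centred on a common median and to between 0.96 and 0.99 when Sertoli input replicate 5, Sertoli IP replicate 1 or 3, Leydig input replicate 1 or Leydig IP replicate 3 was left out. Without the threshold Mrps17 was less enriched in Leydig than in Sertoli cells by 0.64 ± 0.11 (coded as -0.64, limma adjusted p = 0.000258). For Mrps21, Mrpl42 and Mrps28 every Leydig input lay below every Sertoli input, which adds to their differences of enrichment. The means of the saline IPs, Leydig and Sertoli, were 10.10 and 9.02 for Mrps21, 6.37 and 5.62 for Mrpl42 and 8.51 and 7.77 for Mrps28.

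The inputs of the lines, which are both whole testis, gave 0 called members (a fold of 1.5 was asked here, and 2.12% of all probe sets passed), with 28 of 85 at an unadjusted p under 0.05 (27% of all) and 9 of 85 lower in Leydig inputs and 0 higher without the fold threshold (limma adjusted p, against 6.5% and 3.98% of all). The smallest unadjusted p belonged to Mrpl49 (-0.47 ± 0.08), Mrps2 (-0.34 ± 0.06) and the second probe set of Mrps5 (-0.38 ± 0.07). The median difference was -0.07 over the 77 genes and -0.03 over all genes. Across the 77 genes the Sertoli and Leydig enrichments, which share no array, had a Pearson r of 0.709 and a Spearman rho of 0.705, and 59 had the same sign. Over 15265 genes r was 0.637 and rho 0.717. Genes are not independent replicates and the inputs of both lines are whole testis.

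By subunit, the small-subunit mRNAs of Leydig cells stood higher than those of the large subunit. Their median enrichment was 0.43 over 26 genes with 22 above 0, against 0.06 over 50 large-subunit genes with 27 above 0. Among the small-subunit genes the median was 0.67 for the 9 mitochondria-specific ones (7 above 0) and 0.29 for the 17 of bacterial families (15 above 0). In Sertoli cells the same medians were 0.12 for the small subunit, 0.02 for the large, 0.58 for the mitochondria-specific small-subunit genes and 0.05 for those of bacterial families. The median difference of enrichment, Leydig minus Sertoli, was 0.15 for the small subunit and 0.08 for the large. These are counts and medians without a test.

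**Figure D3:**
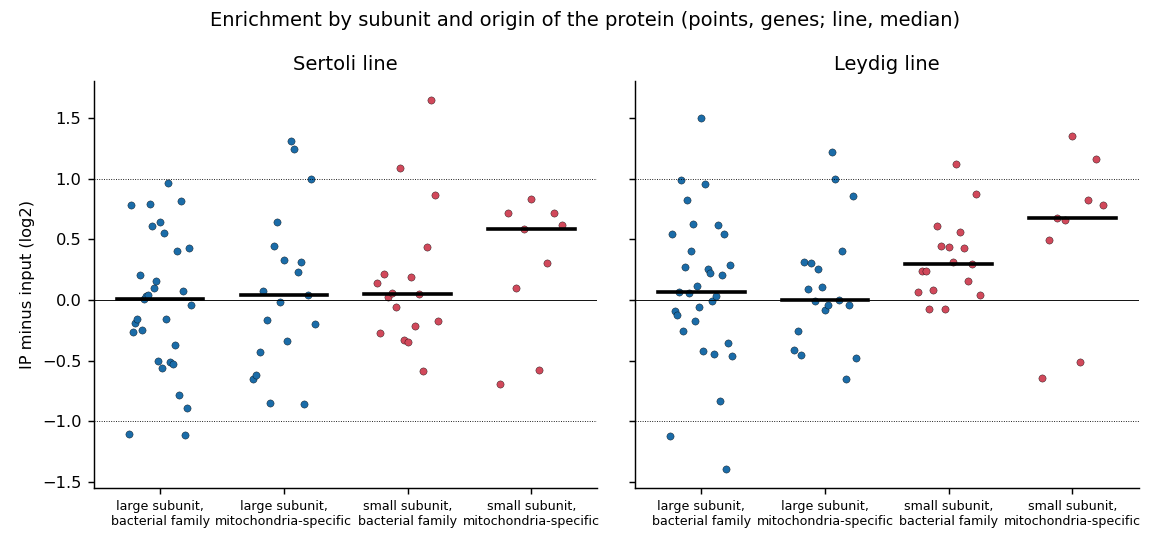
Log2 enrichment (saline IP minus input) of the member genes in Sertoli cells (left) and Leydig cells (right) by subunit and by origin of the protein, with a point for each gene, a thick line for the median and dotted lines at a 2-fold difference. In Leydig cells 7 of the 9 mitochondria-specific small-subunit genes lie above 0, with a median of 0.67.

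Mrpl58, described above, differed by 0.99 ± 0.07 in Sertoli cells and by 0.85 ± 0.08 in Leydig cells. Mrpl12, the counterpart of the bacterial L7/L12 stalk protein and a partner of the mitochondrial RNA polymerase, differed by -0.19 ± 0.06 in Sertoli cells and -0.12 ± 0.12 in Leydig cells. Mrpl45, which anchors the ribosome to the inner membrane, differed by -0.02 ± 0.09 and 0.11 ± 0.07. Mrpl44, a protein with an RNase III fold, differed by 0.64 ± 0.12 and 0.26 ± 0.08. Mrps12, of the decoding centre, differed by 0.22 ± 0.07 and 0.24 ± 0.11.

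The 3 homologues of bacterial S18 had different patterns. Mrps18a, found in the large subunit, was at -0.04 ± 0.10 in Sertoli and -0.46 ± 0.07 in Leydig cells. Mrps18b, a small-subunit member, was at -0.33 ± 0.08 and -0.08 ± 0.08. Mrps18c, the one named as the counterpart of the bacterial protein, was at -0.34 ± 0.12 and 0.44 ± 0.08, and the difference of 0.78 ± 0.17 passed the limma adjusted p (0.0018) but not the fold. The interval of the difference was -0.73 to -0.11 for Mrps18a and -0.0044 to 0.52 for Mrps18b. Mrps30, also in the large subunit, was at -0.20 ± 0.07 and -0.48 ± 0.07, and Mrps36 at -0.80 ± 0.11 and -0.37 ± 0.09.

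Levels of the lines were also compared on the IPs alone, over all treatments. These levels are not set against inputs, so any difference between the inputs of the lines can remain in them. Of the 85 probe sets, 18 were higher on all 9 Leydig IPs than on all 15 Sertoli IPs and 13 were lower on all of them, against 12.1% and 17% of all 25399 probe sets. Mrps18c was 10.02 to 10.33 on the Leydig IPs and 9.17 to 9.83 on the Sertoli IPs, Mrps21 was 9.73 to 10.15 and 8.78 to 9.20, and Mrps28 was 8.37 to 8.61 and 7.54 to 7.95. In the other direction Mrps6 was 8.78 to 9.69 on the Leydig IPs and 10.2 to 10.7 on the Sertoli IPs, and Mrpl49 was 8.79 to 9.28 and 9.48 to 9.77. The others above were Mrpl14, Mrpl17, Mrpl23, Mrpl24, Mrpl30, Mrpl37, Mrpl42, Mrps11, Mrps24, Mrps33, Mrps34 and Mrps36, and the others below were Mrpl3, Mrpl10, Mrpl19, Mrpl36, Mrpl43, Mrpl44, Mrpl46, Mrps17, Mrps23 and a single probe set each of Mrpl51 and Mrps5. Mrpl49 thus had a higher level in Sertoli IPs although it was enriched over input in both lines. Its level was also lower in the Leydig inputs than in the Sertoli inputs (-0.47 ± 0.08, limma adjusted p = 0.00189). Its difference of enrichment, Leydig minus Sertoli, was -0.08 ± 0.11 (limma adjusted p = 0.603). The saline arrays behind the enrichment are among these arrays.

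Other genes of mitochondrial translation give the setting. Over all probe sets 12.4% were called enriched and 11.7% depleted in Sertoli cells, and 11% and 10.7% in Leydig cells. The counts of the lists below carry no test against these shares. Of 4 measured ribosomal proteins with other symbols (such as Dap3) 0 were called in either line, with limma adjusted p under 0.05 for 2 in Sertoli cells and 3 in Leydig cells. Of 13 translation factors, 1 was enriched in Sertoli cells (Mtrf1l, a release factor, 1.64 ± 0.13) and 1 was depleted in each line (Mrrf, the ribosome recycling factor, -1.19 ± 0.10 and -1.29 ± 0.12). Of 25 assembly factors, 5 were enriched and 1 depleted in Sertoli cells, and 2 were enriched and 1 depleted in Leydig cells. Mpv17l2, needed for assembly of the ribosome, was enriched in both (1.71 ± 0.08 and 1.73 ± 0.08), whereas Mrm1, an rRNA methyltransferase, was enriched in Sertoli cells (1.68 ± 0.11) and 1.30 ± 0.15 less so in Leydig cells (coded as -1.30, limma adjusted p = 3.9e-06).

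Of 16 mitochondrial tRNA synthetases, Iars2 and Lars2 were enriched in both lines (1.00 ± 0.06 and 1.04 ± 0.07 in Sertoli cells, 1.32 ± 0.10 and 1.27 ± 0.09 in Leydig cells) and none was depleted by the fold and limma adjusted p. None of the 5 measured genes of mitochondrial DNA transcription was called, with limma adjusted p under 0.05 for 4 in each line. Of 9 nuclear regulators, Ppargc1b, a coactivator of mitochondrial genes, was called enriched in Sertoli cells (1.02 ± 0.06), with -0.10 ± 0.08 in Leydig cells. The nuclear-encoded respiratory chain subunits, which join the products of the mitochondrial ribosome, had a median enrichment of -0.13 over 80 genes in Sertoli cells (5 enriched, 3 depleted) and 0.50 in Leydig cells (16 enriched, 3 depleted). The cytosolic ribosomal proteins had medians of -0.41 over 60 genes (0 enriched, 7 depleted) and -0.06 over 59 genes (3 enriched, 4 depleted). The median of 0.21 for the mitochondrial ribosomal proteins in Leydig cells lay between these.

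The effects of hormone withdrawal and replacement were read among the IPs of each line (a fold of 1.5 and an adjusted p under 0.05). In Leydig cells 4 days of acyline left 0 members called, and 0.143% of all 24461 probe sets were. No member passed the limma adjusted p alone, 8 of 85 had an unadjusted p under 0.05 against 13.7% of all, and the interval of the difference lay within 1.5-fold for 82 of the 85. Of the 85 differences 63 were above 0, and the median was 0.08 over the 77 genes and 0.02 over all genes. The genes with the smallest unadjusted p were Mrps5 (0.28 ± 0.09 for its second probe set and 0.34 ± 0.11 for the first), Mrpl55 (0.25 ± 0.08) and Mrpl22 (0.44 ± 0.15), with a limma adjusted p of at least 0.224 for each.

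LH for 1 h against acyline alone gave 0 called members (0.00818% of all probe sets). Here 17 of the 85 differences were above 0 and the median over the 77 genes was -0.09, against -0.01 over all genes. The smallest unadjusted p belonged to Mrpl27 (-0.24 ± 0.09), Mrpl46 (-0.34 ± 0.13) and Mrpl11 (-0.24 ± 0.09), and the limma adjusted p was at least 0.813 for each. LH for 4 h against acyline again gave 0 called members (0.613% of all), with 56 of 85 differences above 0 and a median of 0.05. Mrpl47 (0.48 ± 0.13), Mrps16 (-0.37 ± 0.10) and Mrps36 (0.37 ± 0.11 for its second probe set and 0.38 ± 0.13 for the first) had the smallest unadjusted p.

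LH for 4 h against LH for 1 h gave 0 called members (0.2% of all), 75 of 85 differences above 0 and a median of 0.17 over the 77 genes, against 0.01 over all genes. The smallest unadjusted p belonged to Mrps36 (0.48 ± 0.11 for its second probe set and 0.44 ± 0.13 for the first), Mrpl47 (0.53 ± 0.13) and the second probe set of Mrpl27 (0.42 ± 0.12), with a limma adjusted p of at least 0.124. The comparisons of this series share arrays, so these counts are not independent of each other. In counts at an unadjusted p under 0.05, 6 members passed at 1 h against acyline, 10 at 4 h against acyline and 12 between the times, against 6.06%, 18.3% and 16.1% of all probe sets.

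**Figure D4:**
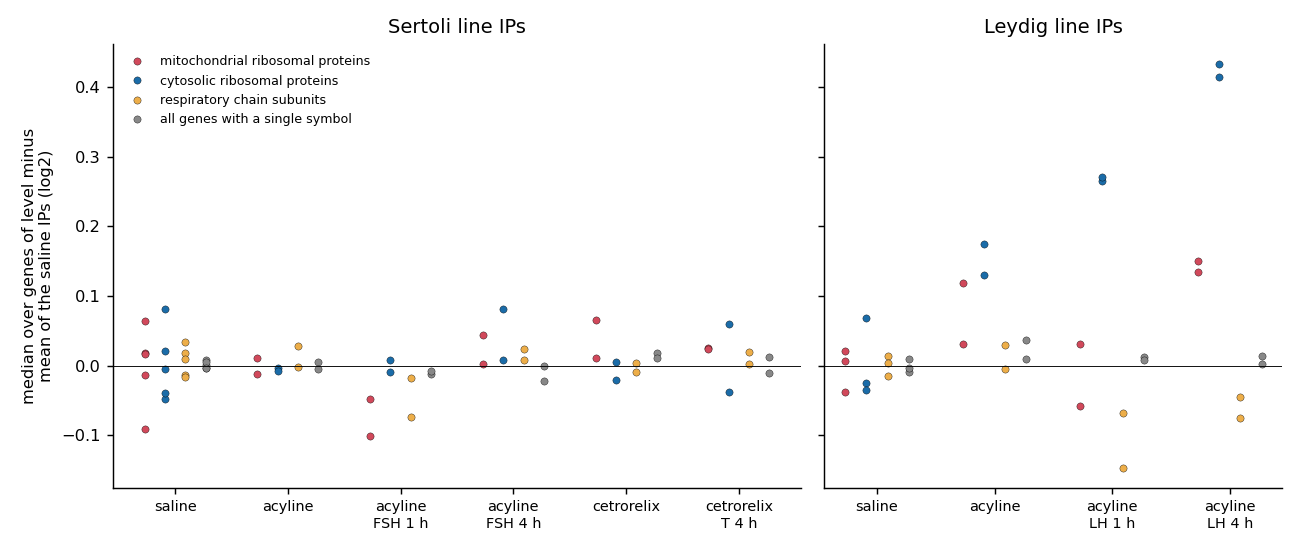
Median over genes of the log2 level minus the mean of the saline IPs of the same line, with a point for each IP array, for the 77 mitochondrial ribosomal protein genes and for 3 other sets, by treatment. In the Leydig line the points of the mitochondrial ribosomal proteins lie between -0.06 and 0.03 at 1 h of LH and at 0.13 and 0.15 at 4 h, where those of the cytosolic ribosomal proteins lie at 0.41 and 0.43.

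LH for 4 h after acyline against saline was the one treatment comparison with a called member. Mrpl47 was 7.49, 7.55 and 7.78 in the saline IPs, 7.71 and 7.74 after acyline, 7.68 and 7.68 at 1 h of LH and 8.09 and 8.34 at 4 h. Both 4 h arrays lay above all other IPs of the line, and the difference from saline was 0.61 ± 0.12 or 1.52-fold (limma adjusted p = 0.0274). It was 1 of 85, whereas 1.57% of all probe sets were called higher and 1.75% lower. The call was lost when either acyline array was left out (limma adjusted p = 0.0503 for each), when 4 h replicate 1 was left out (0.48 ± 0.14, adjusted p = 0.117) and when saline replicate 1 or 2 was left out (adjusted p = 0.0804 and 0.0806). The second probe set of Mrpl47 was 5.67 and 6.05 at 4 h and 5.63 to 5.68 in saline. The mean of the 10 spermatid markers was 10.64 and 10.82 on the 4 h arrays and 10.34 to 10.42 on the saline IPs, without overlap, and that of the spermatogonia and spermatocyte markers was 8.81 and 9.17 against 9.02 to 9.20. Mrpl47, Mrps36 and Mrps30 differed by -1.40, -0.37 and -0.48 between saline Leydig IPs and inputs. Mrps18b, also higher at 4 h, differed little from its input, as given above. Mrpl1, which was depleted in the saline Leydig IPs, differed by 0.22 ± 0.08 between 4 h of LH and saline. The part of germ cell RNA in the differences of these genes at 4 h was not tested.

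Without the fold, Mrps36 (both probe sets) and Mrps18b passed the limma adjusted p too, which made 4 of 85 higher and 0 lower, where 3.05% of all were higher. Mrps36 was 6.07, 6.17 and 6.33 in saline and 6.68 and 6.70 at 4 h of LH, a difference of 0.50 ± 0.11 (limma adjusted p = 0.0425), and its second probe set gave 0.50 ± 0.10. Mrps18b was 10.10, 10.15 and 10.31 in saline and 10.54 and 10.62 at 4 h, a difference of 0.39 ± 0.09 (limma adjusted p = 0.0478). Mrps30 was 7.16, 7.18 and 7.31 in saline and 7.59 and 7.80 at 4 h, a difference of 0.48 ± 0.12 that missed the threshold (limma adjusted p = 0.053). The median difference over the 77 genes was 0.17, that over all genes 0.01, that of 59 cytosolic ribosomal proteins 0.42 with 14 called higher, and that of 80 respiratory chain subunits -0.07 with 0 called. Among nuclear regulators of mitochondrial genes, Myc (1.44 ± 0.33) and Pprc1 (0.71 ± 0.17) were called higher at 4 h of LH than in saline (limma adjusted p = 0.0433 and 0.0444).

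**Figure D5:**
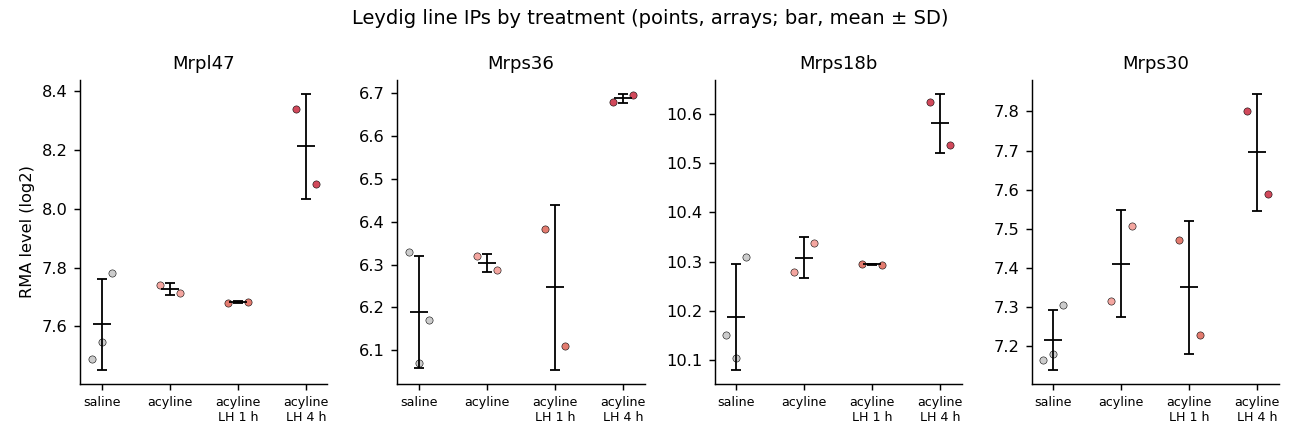
Log2 RMA levels of Mrpl47, Mrps36, Mrps18b and Mrps30 in the Leydig line IPs by treatment, with each array as a point and the mean ± SD as a bar; the vertical axes differ between genes and do not start at 0. For each gene both arrays at 4 h of LH lie above the 3 saline arrays. These genes have the smallest unadjusted p of the members in this comparison, so the separation is no further test. Many other members also show no overlap between these groups.

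In Sertoli cells 0 members were called in any treatment comparison. The shares of all 24648 probe sets called were 0.00406% for acyline against saline, 0.0122% for cetrorelix against saline, 0.00406% for testosterone against cetrorelix, 0% for FSH 1 h against acyline and 0.0203% for FSH 4 h against acyline. At an unadjusted p under 0.05 the members passing were 3, 3, 1, 4 and 4 of 85 in the same order, against 5.01%, 4.99%, 5.01%, 9.43% and 4.4% of all. The interval of the difference lay within 1.5-fold for 83, 82, 82, 83 and 82 of the 85, so that larger changes were outside the intervals of nearly all members.

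The median over the 77 genes was 0.01 for acyline, 0.03 for cetrorelix, -0.01 for testosterone, -0.07 for FSH 1 h and 0.03 for FSH 4 h. At FSH 1 h 20 of 85 differences were above 0. The mean of the spermatogonia and spermatocyte markers on the same arrays was 8.62 and 9.02, against 8.38 and 8.43 after acyline alone, and the part of this in the member values was not tested. The members with the smallest unadjusted p were Mrps21, the second probe set of Mrpl23, and Mrpl55 at FSH 1 h, with differences of -0.24 ± 0.09, -0.23 ± 0.09 and -0.26 ± 0.11. At FSH 4 h Mrps18c was 9.71 and 9.83 against 9.23 and 9.39 after acyline, a difference of 0.46 ± 0.12 with an unadjusted p of 0.00169 and a limma adjusted p of 0.718, followed by Mrpl14 (-0.22 ± 0.08) and Mrpl30 (-0.20 ± 0.07). After cetrorelix Mrpl47 (-0.34 ± 0.12), Mrpl4 (0.24 ± 0.09) and Mrpl45 (0.23 ± 0.10) came first, each with a limma adjusted p of 0.933. After acyline these were Mrpl57 (-0.26 ± 0.11), Mrpl9 (0.19 ± 0.08) and Mrpl52 (-0.21 ± 0.10), each with a limma adjusted p of 0.966. The Leydig cell markers were lower on the treated Sertoli IPs than on the saline ones. The part of this in the differences of acyline and cetrorelix from saline was not tested.

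Mrpl20 was the gene with the widest spread between replicates, with an SD of 1.03 on the log2 scale over the 2 cetrorelix arrays where the median SD of the 77 genes was 0.06. Its difference between testosterone and cetrorelix, 0.97 ± 0.45, was the largest of the members in that comparison and was not called. Mrps34 (-0.33 ± 0.14) had the smallest unadjusted p there, before Mrpl20 and Mrps27 (-0.24 ± 0.12), and the limma adjusted p was 0.93 for each. For acyline the effects in Leydig and Sertoli cells were also compared directly in a fit of all IPs, and 0 of 85 members were called, against 0.0669% of all 25399 probe sets, and 5 had an unadjusted p under 0.05, against 8.66% of all. Mrpl22 had the smallest unadjusted p there, with 0.80 ± 0.30 (limma adjusted p = 0.458), followed by Mrps5 (0.30 ± 0.13) and Mrps11 (0.32 ± 0.14). The Leydig line received acyline for more days than the Sertoli line, so line and duration cannot be told apart in this comparison.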

How the data were processed

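RNA of inputs and IPs was hybridised to Affymetrix Mouse Gene 1.0 ST arrays, and the deposited values are log2 signals that the authors made with RMA (version not given in the sources used here) over all 32 arrays. Gene symbols came from GEO's platform annotation, updated by Entrez ID (0 symbols changed), and 1 mitochondrial ribosomal probe set with several symbols was left out. The members and the gene lists were chosen with earlier results of these data known. Differences were fitted with limma 3.58.1 (R 4.3.3) on probe sets with a linear signal over 50 on at least 1 array of the fit, with Benjamini-Hochberg adjustment and moderated variances. Enrichment was fitted on the input and IP saline arrays of a line, its difference and the inputs on all 16 saline arrays, treatments on all IPs of a line and the difference of acyline effects on all IPs of both lines. The study describes the Sertoli testosterone and FSH treatments as separate experiments. The labels do not say to which of them each saline array belongs, and no term for the experiment was fitted. Called meant a fold of at least 2 (enrichment, its difference) or 1.5 (elsewhere) with an adjusted p under 0.05; ± is the standard error. Members called were named (all where at most 10), otherwise the 3 with the smallest unadjusted p, and Mrpl12, Mrpl44, Mrpl45, Mrpl58, Mrps12, Mrps18a, Mrps18b, Mrps18c, Mrps30 and Mrps36 for their roles. Other members were named after their values were seen. Scripts were tested on simulated data. Scaling, filter, test, replicate block, samples fitted and left-out arrays were varied. The number of arrays limits the precision.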

Additional observations from a re-analysis of the deposited data

Results flagged for a closer look

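Among the named members, 4 had an enrichment that differed between the lines in the test of the difference itself (Leydig minus Sertoli, limma on the 16 saline arrays). The difference was 1.34 ± 0.09 for Mrps21, 1.16 ± 0.22 for Mrpl42, 1.01 ± 0.12 for Mrps28 and -1.36 ± 0.18 for Mrps6. For Mrps21, Mrpl42 and Mrps28 the Leydig inputs lay below the Sertoli inputs, which adds to their differences.

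In the 2 Sertoli saline groups of 5 arrays, 76 gene and group pairs were examined for a single array far from the rest, and 5 had one; chance gives about 1 in 20. Mrpl47 was 8.76 on input replicate 5 and 9.06 to 9.18 on the other inputs. Mrpl42 was 7.01 on input replicate 3 and 6.26 to 6.38 on the others. Mrps30 was 7.36 on IP replicate 5 and 7.59 to 7.65 on the others, Mrpl11 was 9.20 on IP replicate 3 and 9.43 to 9.50 on the others, and Mrpl9 was 8.75 on IP replicate 4 and 8.50 to 8.56 on the others.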

How the results depend on the processing

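The counts of called members for Sertoli enrichment, Leydig enrichment and their difference stayed within 1.5 times of 6, 8 and 4 under every alternative tried, with ranges of 6 to 8, 9 to 9 and 3 to 4 when each array was left out in turn, and no named member that was called in either fit changed direction. The single call for LH 4 h against saline became 2 with arrays centred on a common median (Mrps36 was added), 0 without moderated variances, 0 with only the groups compared, 0 with the replicate number as a block, and 0 to 1 with single arrays left out (0 without acyline replicate 1 or 2, LH 4 h replicate 1 or saline replicate 1 or 2); the cause was not tested. The replicate block gave 1 called member between the inputs of the lines in place of 0, and the difference of acyline effects gave 1 (Mrpl22) in place of 0 with p not adjusted. In all other treatment comparisons 0 members were called under every alternative, single arrays left out included (0 to 0). The correlation of the deviations of same-numbered arrays was -0.03 to 0.15 for IP and input, with 3 of 8 pairs over 0.1. Among IPs it was -0.16 to 0.14, with 10 of 42 over 0.1, and there 2 groups of 2 arrays give the same value for both numbers. The study compares IPs with their respective inputs, and the labels do not say whether equal numbers mark such pairs. These correlations cannot exclude pairing, and the main fits left the numbers out. Crossed pairing of the numbers, added after the data were seen, gave 0 called members for LH 4 h against acyline and 0 for testosterone against cetrorelix, and so did leaving out the FSH 1 h arrays in the 5 comparisons it touched. Groups of 2 arrays leave wide intervals. Signal near background limits the second probe set of Mrpl47, and Mrpl42 and Mrps36 in the Sertoli IPs.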
